A study of Mus musculus with 4 samples.

Results

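The Mas-related G-protein-coupled receptors (Mrgprs) are a family of cell-surface receptors found mainly on small-diameter sensory neurons, whose axons carry pain, itch and some forms of touch from the skin. A ligand at such a receptor typically activates G proteins and phospholipase C, and ion channels in the nerve ending then open. In rodents the A, B and C groups of the family were multiplied by repeated gene duplication, whereas Mrgprd, Mrgpre and Mrgprf are single genes. Mrgprd is a receptor for beta-alanine and marks non-peptidergic nociceptors. Mrgpra3 is a receptor for chloroquine and marks itch-sensing neurons, Mrgprx1 responds to a peptide cut from proenkephalin, and Mrgprb4 marks C-fibre afferents of hairy skin that respond to stroking. Mrgpre and Mrgprf have no settled ligand.

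The 7 genes described here, Mrgprd, Mrgpra3, Mrgprx1, Mrgprb4, Mrgprb5, Mrgpre and Mrgprf, were taken by symbol from the 48431 genes of a ribosome footprint table, of which 21683 are annotated as protein coding. Each symbol had 1 row, so no row had to be chosen among several. The table holds 4 libraries of 1 group, from dorsal root ganglia (DRG), the clusters of sensory neuron cell bodies beside the spinal cord, of female WT mice of the SW strain. The mice had received 4 intraperitoneal injections of paclitaxel, 4 mg/kg each, with a day between injections. Paclitaxel is a chemotherapy drug that stabilises microtubules and can cause painful neuropathy. The ganglia were used whole, so that neurons, glia, vessels and connective tissue all contributed, and the labels do not say whether the libraries came from separate animals. The age of the mice is not given in the labels. Animals without the drug were not analysed here, and no value below is an effect of paclitaxel. In a bulk sample of this kind fewer cells of a type and less RNA per cell cannot be told apart.

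The footprints were RNA pieces of 28 to 34 nt cut from ribosome-bound RNA, and a gene's reads follow the number of ribosomes on its transcripts. Levels are in CPM, the reads of a gene per 1000000 reads assigned to genes in that library. Depth was 5731507, 9255057, 14633420 and 10424949 reads in replicates 1 to 4, so that 3 reads, the most that a count of 0 allows, came to 0.523, 0.324, 0.205 and 0.288 CPM in the same order. Reads of nearly identical genes could have been divided in ways that the sources used here do not state. The labelled tissue was checked against sensory neuron markers. All 6 met the detection rule given below, as did 62.5% of protein-coding genes. Avil, Prph and Scn10a were among the 6, whose summed level was 3932, 4180, 3902 and 3949 CPM in replicates 1 to 4.

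All 7 receptor genes lie on mouse chromosome 7, in the GRCm38 build. Mrgpra3 (ENSMUSG00000078698.3, 47588950 to 47601372), Mrgprx1 (ENSMUSG00000070552.2, 48020971 to 48027597), Mrgprb5 (ENSMUSG00000070551.3, 48167983 to 48169019) and Mrgprb4 (ENSMUSG00000070550.2, 48198070 to 48199288) are on the minus strand of a 1.50 Mb stretch that holds 28 family genes and pseudogenes. Mrgprb5 and Mrgprb4 are 29050 nt apart. Mrgpre (ENSMUSG00000048965.9, 143778363 to 143784500, minus strand), Mrgprf (ENSMUSG00000031070.15, 145300828 to 145309557, plus strand) and Mrgprd (ENSMUSG00000051207.7, 145314835 to 145324086, plus strand) lie far from that stretch. Mrgprf ends 5277 nt before Mrgprd begins. The 7 coding sequences are close in length, from 930 nt in Mrgpre to 1029 nt in Mrgprf.

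The first 30 nt of each coding sequence, about the length of 1 footprint, are printed to show how far the receptors differ where translation begins. They were read from GENCODE M21 transcripts on GRCm38 and are written 5′ to 3′ on the coding strand, with the start codon in capitals. The Mrgpra3 window spans an intron. Mrgprb4 and Mrgprb5 open almost alike, while the other windows are less alike.
Mrgprd: ATGaactccactcttgacagcagcccagct
Mrgpra3: ATGggagaaagcaacaccagtgcagggttt
Mrgprx1: ATGgatccaaccatctcatcccacgacaca
Mrgprb4: ATGggtacaaccaccctggcctggaacatt
Mrgprb5: ATGggtctaaccactccagcctggaacatt
Mrgpre: ATGacgtccctgagcgtgcacacagattct
Mrgprf: ATGgccggaaactgttcatgggaagctcac

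Whether a footprint can be assigned to 1 gene depends on such differences. Each coding sequence was cut into all its 30-nt words, and a word was called unique if no transcript of another annotated gene held it on either strand. In Mrgprd, Mrgpre and Mrgprf 100% of the words were unique. The shares were 91.6% in Mrgprb5, 85.4% in Mrgprb4, 72.4% in Mrgpra3 and 71.1% in Mrgprx1, so the levels of these 4 genes carry more uncertainty. Mrgpra3 shared words with 14 genes, the largest number with Mrgpra4 (186 words). Mrgprx1 shared words with 9 genes, the largest number with Gm18348 (118 words). Of the 937 words of Mrgprx1, 666 were unique. The longest run that Mrgpra3 and Mrgpra4 have in common is 76 nt, at chr7:47589886-47589961 in Mrgpra3 and chr7:47981618-47981693 in Mrgpra4, and a footprint from within it cannot be given to either gene.
Mrgpra3 and Mrgpra4, identical run: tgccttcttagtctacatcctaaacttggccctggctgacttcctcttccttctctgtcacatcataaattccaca

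**Figure D1:**
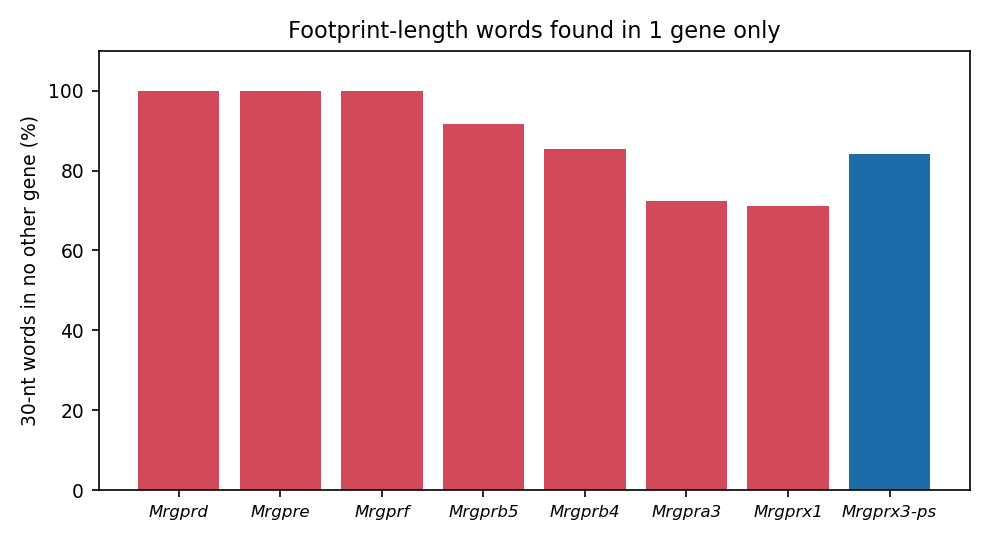
The share of 30-nt coding words found in no other annotated gene (vertical axis, percent), for the 7 receptor genes in red and for the annotated pseudogene Mrgprx3-ps, cut from its transcript, in blue. Mrgprd, Mrgpre and Mrgprf reach 100%, and the lowest bars are those of Mrgpra3 at 72.4% and Mrgprx1 at 71.1%.

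Footprints of all 7 receptors were present in all 4 libraries. Each gene reached at least 1 CPM in every library, the rule used here to call a gene detected, which 62.5% of protein-coding genes and 30.4% of all genes met. Mrgprd had more reads than the other 6 receptors together, with 68.7%, 72.5%, 67.8% and 70.6% of their summed CPM in replicates 1 to 4 (70.2% ± 2.06 of the sum per kilobase of coding sequence). The summed level of the 7 genes was 483, 506, 441 and 411 CPM in the same order. On average Mrgpra3 held 9.98% ± 1.28 of the sum, Mrgpre 6.25% ± 0.488, Mrgprf 5.91% ± 1.06, Mrgprx1 3.68% ± 0.940, Mrgprb5 2.70% ± 0.971 and Mrgprb4 1.59% ± 1.07 (SD, n = 4 libraries).

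**Figure D2:**
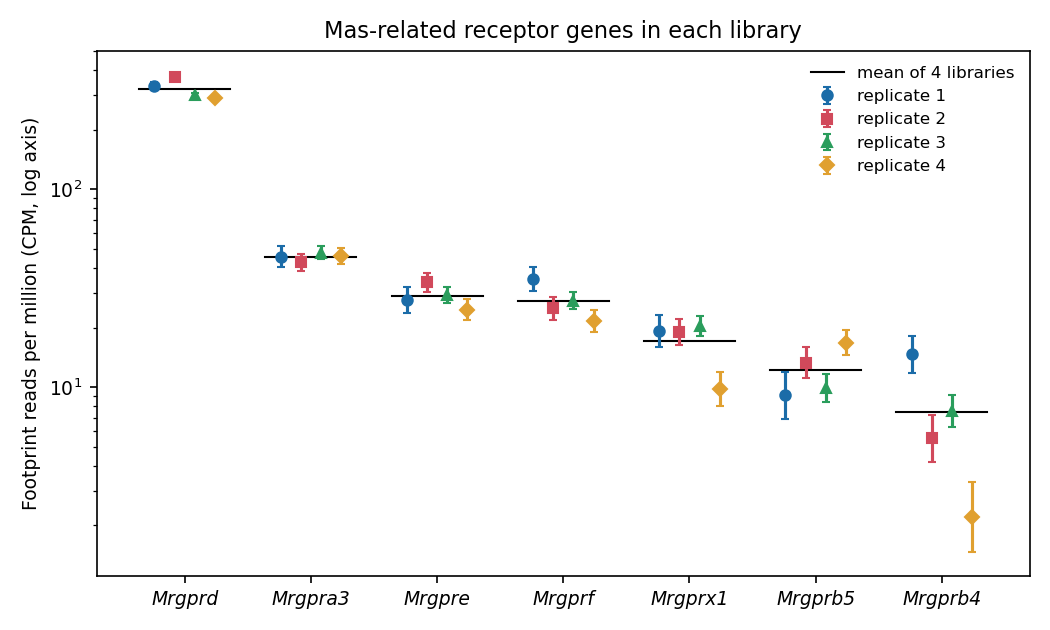
CPM of each receptor gene (vertical log axis) in replicates 1 to 4, with 95% Wilson intervals as bars, which cover counting error only, and the mean of the 4 libraries as a line. Mrgprd stands between 289.9 and 367 CPM, Mrgpra3 is nearly level across the libraries at 42.7 to 47.8 CPM, and Mrgprb4 is spread from 2.21 to 14.7 CPM.

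Mrgprd, the beta-alanine receptor, stood at 332, 367, 299 and 289.9 CPM in replicates 1 to 4, from 1903, 3398, 4375 and 3022 reads. Its mean was 322 ± 35.1 CPM (SD, n = 4). Replicate 2 was the highest library and replicate 4 the lowest, and of the 6 pairs of libraries only 1 had overlapping 95% Wilson intervals. Even so, the largest value was just 1.27 times the smallest.

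Mrgpra3, the chloroquine receptor, had 45.7, 42.7, 47.8 and 45.9 CPM in replicates 1 to 4, from 262 to 700 reads. Its mean was 45.5 ± 2.13 CPM, and its coefficient of variation of 4.68% was the smallest of the 7. All 6 pairs of libraries had overlapping intervals, which does not by itself exclude a difference between libraries. Mrgprx1, the receptor for a proenkephalin peptide, had 19.2, 19.0, 20.4 and 9.78 CPM in replicates 1 to 4, with a mean of 17.1 ± 4.91 CPM. The first 3 libraries lay close together and replicate 4 was far below them, with a largest value 2.08 times the smallest. The interval of replicate 4, 8.06 to 11.9 CPM, lay below those of the other libraries, which ran from 15.9 to 23.1 CPM.

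The B receptors moved in opposite orders across the libraries. Mrgprb4, the marker of stroking-sensitive C-fibres, had 14.7, 5.51, 7.59 and 2.21 CPM in replicates 1 to 4, from 84, 51, 111 and 23 reads. Its mean was 7.49 ± 5.27 CPM, with a largest value 6.64 times the smallest. Mrgprb5 had 9.07, 13.3, 9.84 and 16.8 CPM in the same order, from 52, 123, 144 and 175 reads, with a mean of 12.2 ± 3.54 CPM. Replicate 1 was thus the highest library for Mrgprb4 and the lowest for Mrgprb5, and replicate 4 was the lowest for Mrgprb4 and the highest for Mrgprb5. The ratio of Mrgprb5 to Mrgprb4 in CPM was 0.619, 2.41, 1.30 and 7.61 in replicates 1 to 4.

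Their sequences bear on how well these reads can be told apart. The coding sequences of Mrgprb4 and Mrgprb5 are 84.5% identical over 963 aligned nt, and 61 words of 30 nt occur in both. The windows of 30 nt in which the genes differ most are printed with the 14 differing bases in capitals. They lie at chr7:48198875-48198904 for Mrgprb4 and chr7:48168679-48168708 for Mrgprb5, both on the minus strand.
Mrgprb4: taGataATaACTCcTTttAtAttctcCTcA
Mrgprb5: taAataGGaGACAcACttTtTttctcACcG
The longest run that is identical in both genes is 57 nt, at chr7:48198265-48198321 for Mrgprb4 and chr7:48168069-48168125 for Mrgprb5.
Mrgprb4 and Mrgprb5, identical run: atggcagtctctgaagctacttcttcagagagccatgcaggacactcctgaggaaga

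Both orphan receptors were detected at levels that overlapped. Mrgpre had 27.6, 33.8, 29.3 and 24.6 CPM in replicates 1 to 4, with a mean of 28.8 ± 3.87 CPM from 158 to 429 reads. Mrgprf had 35.2, 25.0, 27.3 and 21.6 CPM, with a mean of 27.3 ± 5.81 CPM from 202 to 399 reads. The highest library was replicate 2 for Mrgpre and replicate 1 for Mrgprf. In Mrgpre 5 of 6 pairs of libraries had overlapping intervals, against 2 of 6 in Mrgprf.

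The receptors were ordered by CPM per kilobase of coding sequence, the scale on which levels of different genes were compared. The means were 334 ± 36.5 for Mrgprd, 46.1 ± 2.16 for Mrgpra3, 31.0 ± 4.16 for Mrgpre, 26.5 ± 5.65 for Mrgprf, 17.7 ± 5.08 for Mrgprx1, 12.7 ± 3.66 for Mrgprb5 and 7.78 ± 5.47 CPM per kilobase for Mrgprb4 (SD, n = 4). Among 13549 detected protein-coding genes on that scale Mrgprd had rank 324, with 97.6% of genes below it, Mrgpra3 had 77.9% below it and Mrgprb4 had 32.9% below it. Differences between pairs of receptors were tested with limma on log2(CPM per kilobase + 1), with Benjamini-Hochberg adjustment over 14127 genes. Each pair was tested with either gene as the common denominator, and the larger adjusted p is given. In 18 of 21 pairs the first gene in this order was higher in 4 of 4 libraries, and the same pairs passed an adjusted p of 0.05. When all genes were set against 1 receptor, 59.0% (against Mrgprb4), 78.2% (Mrgprb5), 79.4% (Mrgprx1), 88.3% (Mrgprf), 90.7% (Mrgpre), 95.1% (Mrgpra3) and 98.9% (Mrgprd) of genes differed from it, so that a called pair is the usual case. The exact sign-flip permutation test, 2-sided, gave its smallest possible p of 0.13 in those 18 pairs (adjusted 0.146 over 21 pairs) and could not pass the threshold.

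Of the 6 neighbours in the order, 3 differed beyond their spread. Mrgprd exceeded Mrgpra3 by 2.83 ± 0.21 on the log2 scale, which is 7.09-fold (limma adjusted p = 2.8e-10). The size depended on the length used, with differences of 1.51 per kilobase of the longest transcript and 2.37 per kilobase of unique coding positions. For unique positions only the length was cut, and all reads of the gene were kept, those from shared words among them. Mrgpra3 exceeded Mrgpre by 0.57 ± 0.23 on the log2 scale, 1.48-fold, in 4 of 4 libraries (limma adjusted p = 0.000145). The difference was 2.07 per kilobase of the longest transcript and 1.02 per kilobase of unique coding positions. Mrgprf exceeded Mrgprx1 by 0.59 ± 0.34 on the log2 scale, 1.50-fold, in 4 of 4 libraries (limma adjusted p = 0.0333). Without replicate 1, 2 or 3 the difference was 0.53, 0.68 and 0.68, and it no longer passed (limma adjusted p = 0.206, 0.0825 and 0.0993). When only unique coding positions were counted as length the difference was 0.12 on the log2 scale (limma adjusted p = 0.69), and per kilobase of the longest transcript it was -0.11 (limma adjusted p = 0.698).

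The other 3 neighbours were not separated by their levels. Mrgpre exceeded Mrgprf by 0.23 ± 0.32 on the log2 scale, 1.17-fold, in 3 of 4 libraries (limma adjusted p = 0.17). The order of these 2 genes turned round per kilobase of the longest transcript, where the difference was -0.69 on the log2 scale (limma adjusted p = 1.1e-05), and without replicate 1 the difference was 0.38 (limma adjusted p = 0.0445). Mrgprx1 exceeded Mrgprb5 by 0.44 ± 0.81 on the log2 scale in 3 of 4 libraries (limma adjusted p = 0.133). Without replicate 4, in which Mrgprx1 was low, the difference was 0.82 (limma adjusted p = 0.00193). Per kilobase of unique coding positions, with all reads kept, the mean difference over the 4 libraries was 0.79 (limma adjusted p = 0.00571). Mrgprb5 exceeded Mrgprb4 by 0.83 ± 1.32 on the log2 scale, 1.77-fold, in 3 of 4 libraries (limma adjusted p = 0.179), and without replicate 1 the difference was 1.32 (limma adjusted p = 0.0204).

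With 1 group of libraries, the test that the design allows for a single gene is whether its libraries differ more than those of other genes at the same level. The test was an F ratio of a gene's variance to the variance limma fitted for its level, on log2(CPM + 1), adjusted over 15728 genes. None of the 7 receptors passed it, against 242 genes or 1.54% of all tested. At an unadjusted p under 0.05, 2 of 7 receptors, Mrgprb4 and Mrgprx1, passed, beside 6.61% of all genes. Mrgprb4 came closest, with an SD of 0.95 on the log2 scale, against 0.24 for genes of its level (limma adjusted p = 0.0666). Mrgprx1 had an SD of 0.47, against 0.19 for genes of its level (limma adjusted p = 0.484). Without replicate 4 the SD of Mrgprx1 was 0.05. Mrgpra3 had an SD of 0.07, against 0.16 for genes of its level (limma adjusted p = 0.997). For Mrgprb4 the call depended on the filter: among all 29512 genes with a read in any library it passed, with a limma adjusted p of 1.7e-06. That fit took the SD for genes of its level, 0.26, as known without error, so this p cannot be set beside the others. The F ratio was 13.0 there, against 15.2 with the filter.

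**Figure D3:**
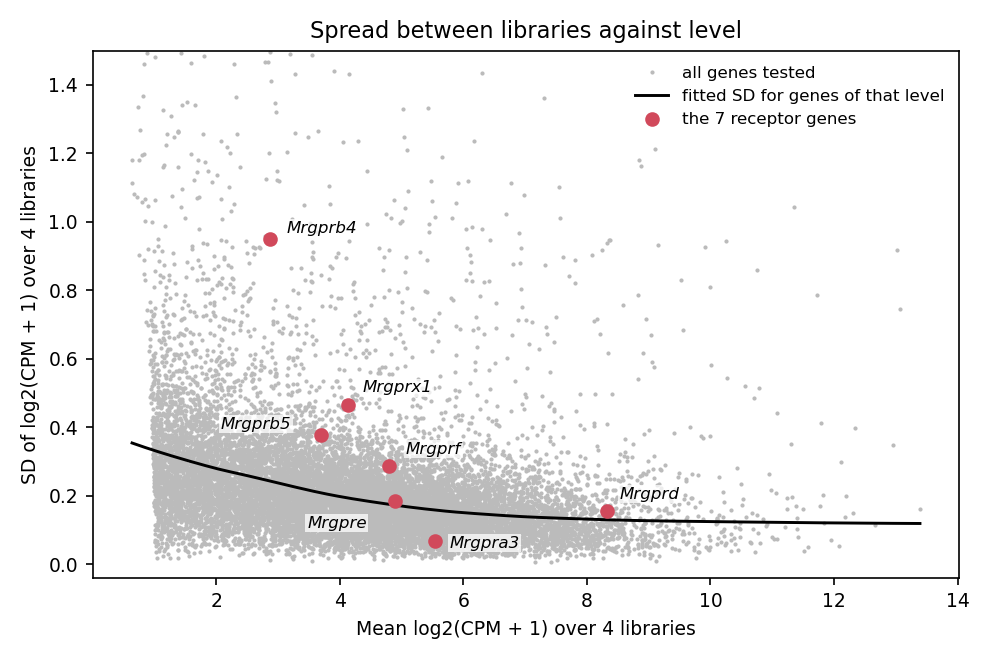
Spread between the 4 libraries (vertical axis, SD of log2(CPM + 1)) against the mean of log2(CPM + 1) for 15728 genes in grey, with the SD fitted for genes of that level as a line and the 7 receptor genes in red. Mrgprb4 lies at an SD of 0.95 above the line and Mrgpra3 at 0.07 below it; 44 genes with an SD above 1.5 are off the axis.

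The libraries also differed in genes of other cell types. The 8 smooth muscle and pericyte markers, all detected, summed to 1031, 708, 801 and 609 CPM in replicates 1 to 4, so replicate 1 was the highest and replicate 4 the lowest. Mrgprf and Mrgprb4 had the same order of libraries as that sum. Des, the muscle intermediate filament gene, was the 1 gene on all the lists described here that passed the variance test, at 111.8, 38.6, 66.4 and 34.2 CPM (limma adjusted p = 0.0200). The 9 mast cell markers summed to 292, 261, 236 and 181 CPM, with 7 of 9 detected, beside 62.5% of protein-coding genes. Mcpt4, a mast cell protease, had 56.2, 36.6, 37.0 and 19.7 CPM, and the mast cell genes Fcer1a and Ms4a2 were under the detection rule. Replicate 4 was the lowest library for the sums of smooth muscle, mast cell, itch receptor and family regulator genes. It was also the lowest for 5 of the 7 receptors (Mrgprd, Mrgpre, Mrgprf, Mrgprx1 and Mrgprb4). The share of all genes that were lowest in replicate 4 is not given here, so that count has no background. Kit, the mast cell marker with the highest CPM, was lowest in replicate 3, at 105.3 CPM. The sum of 5 fibroblast markers was 15837, 9207, 11199 and 11787 CPM. The sum of the 6 sensory neuron markers lay within 3902 to 4180 CPM in all 4 libraries. The part of these cell types in the spread of the receptors was not tested.

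**Figure D4:**
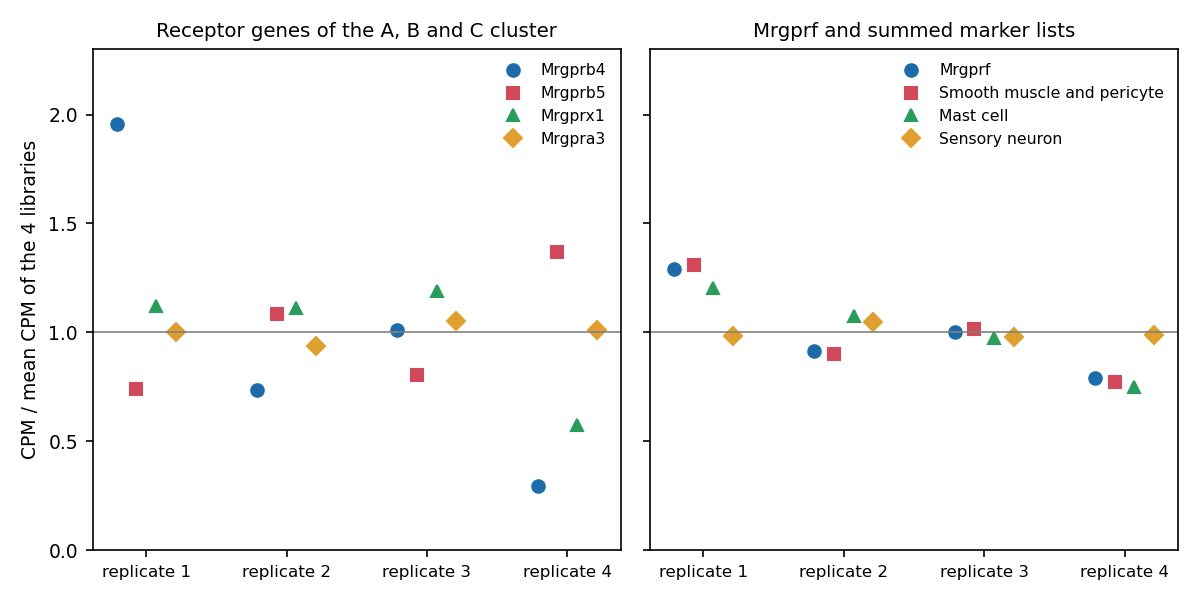
CPM of each gene or summed marker list in replicates 1 to 4, divided by its own mean over the 4 libraries (vertical axis, 1 is the mean). On the left Mrgprb4 and Mrgprb5 run in opposite orders while Mrgpra3 stays close to 1, and on the right Mrgprf and the smooth muscle and mast cell sums are highest in replicate 1 and lowest in replicate 4 while the sensory neuron sum stays close to 1.

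Genes with the level most like a receptor's in every library were found by the root mean square difference of log2(CPM + 1) over the 4 libraries, a measure that says nothing of function. Mrgprd was closest to Cnn3 (0.0981), Cd44 (0.0995) and Clptm1 (0.106). Mrgpra3 was closest to Ubl4a (0.0211), Tmx1 (0.0283) and Hsf2 (0.0313), and Mrgpre to Rem2 (0.0457), Tsta3 (0.0493) and Cyr61 (0.0498). Mrgprf was closest to P3h1 (0.0565), Fbxl17 (0.0795) and 4932411E22Rik (0.0799), and Mrgprx1 to Hey1 (0.144), Cln6 (0.166) and Pcdhga11 (0.167). Mrgprb5 was closest to Nme7 (0.182), Pcdhgb1 (0.200) and Shh (0.207). Mrgprb4 had the most distant neighbours, Xirp1 (0.270), which encodes an actin-binding protein of striated muscle, Josd1 (0.344) and Dchs2 (0.389). Xirp1 had 11.2, 5.40, 6.22 and 2.97 CPM in replicates 1 to 4, the same order of libraries as Mrgprb4. Josd1 and Dchs2 had that order too, which largely follows from how these genes were chosen.

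Beyond the 7 receptors, the table had 27 further rows of the family, counting Mas1 and 13 annotated pseudogenes, and 8 of the 27 were detected. The 7 receptors took 84.8% ± 0.982 of the family's summed CPM (SD, n = 4). Per kilobase of sequence, the row with the second-highest level of the family was an annotated pseudogene, Mrgprx3-ps (ENSMUSG00000099560.1, unprocessed pseudogene, chr7:47309378-47310295, minus strand), with 10.8% ± 0.711 of that sum. It was named after its values were seen and was given no test of its own. Mrgprx3-ps had 55.3, 66.7, 60.3 and 53.2 CPM in replicates 1 to 4, from 317, 617, 882 and 555 reads. Mrgpra3, per kilobase of coding sequence, stood below Mrgprx3-ps, per kilobase of transcript, in every library. Its level was 0.769, 0.595, 0.738 and 0.803 times that of the pseudogene.

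The annotated Mrgprx3-ps sequence of 918 nt begins with an ATG and has 305 codons before its first in-frame stop, against 329 codons in Mrgpra3. Of its 30-nt words 84.3% were unique, and where on the sequence its reads lie was not analysed here. It is 84.1% identical to Mrgpra3 over 906 aligned nt and 89.5% identical to Mrgpra9. Its first 30 nt are printed with the ATG in capitals, from chr7:47310266-47310295 on the minus strand.
Mrgprx3-ps: ATGgacgaaaccatccctggaagtattgac

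Of the 13 other family genes listed for this description, 6 were detected, all at a low level, beside the 62.5% of protein-coding genes given above. They were Mrgpra4 (4.09 ± 1.90 CPM), Mrgpra1 (3.53 ± 1.32 CPM), Mrgpra9 (3.38 ± 0.572 CPM), Mrgpra2b (2.64 ± 0.934 CPM), Mrgprb1 (1.59 ± 0.363 CPM) and Mrgpra6 (1.56 ± 0.273 CPM). Mrgpra4 shares 186 of its 30-nt words with Mrgpra3, and Mrgpra2b shares 904 of its words with Mrgpra2a and has 6.22% unique ones, so both values are uncertain. Mrgprb2, the mast cell receptor for basic secretagogues, had 0.614 ± 0.188 CPM and was not detected. Mrgprh (1.34 ± 0.410 CPM) missed the rule in 1 library, and Mrgpra2a, Mas1, Mrgprb8 and Mrgprg had 0.241, 0.160, 0.0342 and 0.0171 CPM on average. Mrgprb3 was without a read in all 4 libraries, so its level can lie anywhere under the limits of 0.205 to 0.523 CPM given above. Of the pseudogenes Mrgpra14, also named after its value was seen, was detected too, at 3.18 ± 1.20 CPM.

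**Figure D5:**
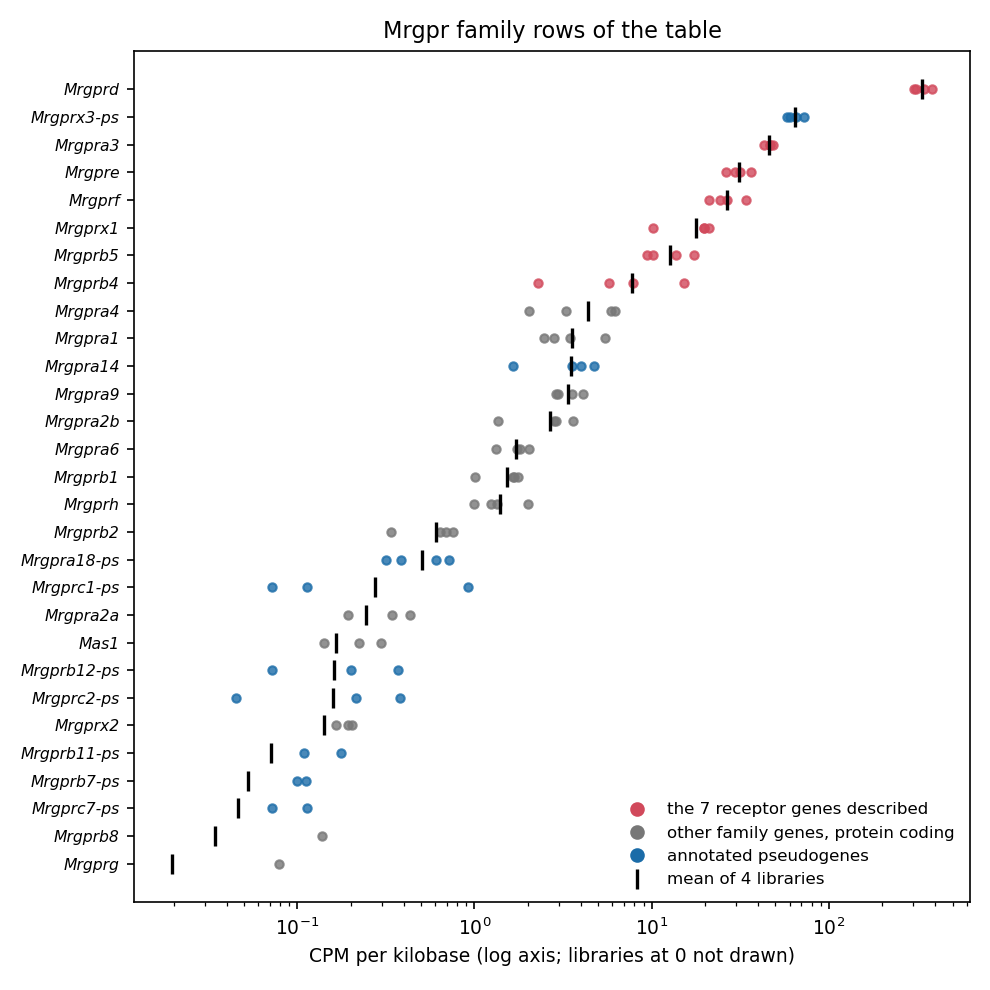
CPM per kilobase (horizontal log axis) of every family row with a read, from the highest at the top, in each library as points and as the mean of 4 libraries as a bar, with the 7 receptors in red, other protein-coding family genes in grey and annotated pseudogenes in blue. Lengths are those of the coding sequence, or of the transcript for annotated pseudogenes. The 7 receptors and Mrgprx3-ps hold the top 8 places, and the other rows lie below Mrgprb4 at 7.78 CPM per kilobase.

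Genes that work with these receptors were counted as detected by the same rule, which 62.5% of protein-coding genes met. All 10 genes of the Mrgprd class of neurons were detected, led by the sodium channel Scn11a (1488 ± 192 CPM), the GDNF co-receptor Ret (744 ± 44.7 CPM), the ATP-gated channel P2rx3 (334 ± 28.8 CPM) and the complement regulator Cd55 (238 ± 18.4 CPM). Their sum was 3573, 3625, 3024 and 3149 CPM in replicates 1 to 4. Replicates 1 and 2 were above replicates 3 and 4 in this sum and in Mrgprd. The same held for the sums of itch transducers, itch receptors, family regulators, C-fibre low-threshold mechanoreceptor genes and mast cell markers. It did not hold for Cd55, Plxnc1, Agtr1a or Lpar5 of the Mrgprd class. All 8 regulators of the family's expression were detected, among them the transcriptional regulator Prdm12 (180.1 ± 14.7 CPM) and Cbfb, the partner of Runx1 (69.1 ± 6.65 CPM). All 5 genes of C-fibre low-threshold mechanoreceptors were detected, among them the neurturin co-receptor Gfra2 (235 ± 35.8 CPM), the tyrosine hydroxylase gene Th (130.5 ± 24.3 CPM), the purinergic receptor P2ry1 (42.3 ± 5.22 CPM) and Fam19a4 (10.7 ± 2.54 CPM).

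All 12 transducers downstream of itch receptors were detected, beside 62.5% of protein-coding genes. The median of the 12 transducers was 81.2 CPM, beside 21.2 CPM for all detected protein-coding genes. Plcb3, the phospholipase C of this pathway, had 489 ± 28.2 CPM, the protein kinase gene Prkcd 381 ± 64.6 CPM, the G-protein subunit gene Gnaq 182 ± 13.2 CPM and the capsaicin channel gene Trpv1 101 ± 5.32 CPM. Of 15 other receptors of itch 13 were detected, with a median of 6.92 CPM. They were led by the sphingosine 1-phosphate receptor S1pr3 (88.8 ± 13.5 CPM), the cytokine receptors Osmr (83.3 ± 2.13 CPM), Il4ra (43.7 ± 3.90 CPM) and Il31ra (28.2 ± 3.25 CPM), while Hrh4 had reads in 1 library and Gpbar1 in none.

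Peptides released by these neurons and precursors of Mrgpr ligands differed widely in level. Of 8 peptide genes 7 were detected, led by Calca, the gene of CGRP, at 714 ± 74.9 CPM, the substance P precursor Tac1 at 107 ± 21.3 CPM, the neuromedin B gene Nmb at 106 ± 6.63 CPM and the PACAP gene Adcyap1 at 41.1 ± 2.98 CPM. Grp was not detected, with reads in replicate 3 alone. Of 7 possible ligand sources 4 were detected, beside 62.5% of protein-coding genes. Camp, the cathelicidin gene, had 62.6 ± 5.98 CPM, the cathepsin gene Ctss had 59.8 ± 5.22 CPM and the adrenomedullin gene Adm had 5.46 ± 0.617 CPM. Penk, the proenkephalin gene and precursor of a peptide that activates Mrgprx1, had 10.99, 11.0, 12.0 and 11.2 CPM in replicates 1 to 4, without the low value that Mrgprx1 had in replicate 4. Pomc (0.598 ± 0.243 CPM), Npff and Cort were not detected. None of the genes on these lists of neuron classes, receptors, transducers, regulators and peptides passed the variance test, beside 1.54% of all genes.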

How the data were processed

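The study's submitters measured ribosome footprints in 4 libraries of 1 group. Ribosomes with their RNA were collected on size-exclusion columns, depleted of ribosomal RNA and size-selected at 28 to 34 nt, per the labels' protocols. Cufflinks 2.2.1, Bowtie2 2.2.9, TopHat2 2.1.1 and FastQC 0.11.5 appear in the submitters' processing notes, with the builds GRCm38.p4 and mm10 but no roles. The counting rule, the handling of reads that fit several genes and the annotation release are not given in the sources used here.

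Although its name says TPM, the table that the authors deposited was used as CPM, because each column sums to 1000000 and the values show no division by gene length. In each column 96.4% to 96.7% of values above 0 came to a whole number, within 0.05, when divided by the column's smallest step, which was taken as 1 read. All 28 values of the 7 receptors were whole by that measure. Wilson intervals at 95% and floors of 3 reads cover counting error only. The libraries were each counted as 1 replicate, since none was a copy of another (median chi-square of 1.55 to 2.24 per gene over the pairs).

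The receptors, the gene lists and the tests were chosen with earlier results of these data known. Of 48431 identifiers, 48052 matched GENCODE M21 on GRCm38 and 22243 had a coding length. Coordinates are counted from 1, and family sequences were aligned with MAFFT 7.526. Values were tested with limma 3.58.1 (R 4.3.3), with a trended, robust prior, on log2(CPM + 1), or on log2(CPM per kilobase of the longest coding sequence + 1), leaving out genes whose mean was under 1 CPM. The adjusted p threshold was 0.05. The p-values reflect the spread of these libraries alone, which may be technical. Named genes were the 7 receptors, the other listed family genes, and of every other list up to 4 detected genes with the highest mean, the genes called by the variance test and the undetected ones. The 3 protein-coding genes nearest to each receptor in level were named too, and some items that this rule names are not reported here. Alternatives were a pseudocount of 0.1, other filters, scalings and lengths, and leaving out each library. The planned scaling and test on recovered read numbers were not run, because the share of whole values was too low to treat the table as read counts.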

Additional observations from a re-analysis of the deposited data

Results flagged for a closer look

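In a group of 4 libraries a value was picked out when its gap to the nearest other value took up most of the group's range by Dixon's criterion, which chance meets in about 1 in 20 groups. Of 34 groups tested, 3 were picked out. The gap was 0.873 of the range for Mrgprx1, whose replicate 4 was low at 9.78 CPM, and 0.853 for the family gene Mrgprb1, whose replicate 4 was low at 1.06 CPM from 11 reads. It was 0.831 for the summed sensory neuron markers, whose replicate 2 was high at 4180 CPM. Replicate 4 was also the lowest library for 5 of the 7 receptors and for the summed mast cell, smooth muscle, itch receptor and regulator genes. The share of all genes lowest in that library is not given here.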

How the results depend on the processing

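No paired analysis was possible because there is only 1 group. Among the tested differences between neighbours, Mrgprd over Mrgpra3 and Mrgpra3 over Mrgpre kept their direction and their call under every alternative run. Their sizes, 2.83 and 0.57 on the log2 scale, did not hold. They were 1.51 and 2.07 per kilobase of the longest transcript and 2.37 and 1.02 per kilobase of unique coding positions. Per kilobase of the longest transcript, Mrgpre over Mrgprf was -0.69 and Mrgprf over Mrgprx1 was -0.11 on the log2 scale, both reversed. Per kilobase of unique coding positions, with all reads kept, Mrgprf over Mrgprx1 was 0.12 and no longer called. Mrgprx1 over Mrgprb5 was 0.79 and called. Leaving out 1 library at a time gave 0.12 to 0.38 for Mrgpre over Mrgprf, 0.45 to 0.68 for Mrgprf over Mrgprx1, 0.25 to 0.82 for Mrgprx1 over Mrgprb5 and 0.28 to 1.32 for Mrgprb5 over Mrgprb4. The cause was not tested. The count of genes with a high spread between libraries, 242, was 757 with no filter on low values and 106 to 205 with 1 library left out (148 without replicate 2 and 106 without replicate 3), where fewer samples entered the fit. With no filter 1 of the 7 receptors, Mrgprb4, was called, in a fit that took the SD for genes of its level as known without error. At 2 CPM in place of 1 CPM, 2 of the other family genes were detected in place of 6. Leaving mitochondrial genes and the 20 highest others out of the library totals raised the median detected gene by 0.21 on the log2 scale, and with it Mrgprd to 376 CPM, Mrgpra3 to 53.1 CPM and Mrgpre to 33.6 CPM. A trimmed-mean scaling and a quasi-likelihood count test on recovered reads were intended but not run. Depth limits Mrgprb4 most, with 23 reads in replicate 4.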
